A study of Mus musculus with 6 samples.

Results

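Expression of the genes for splicing factors and heterogeneous nuclear ribonucleoproteins (hnRNPs) was examined in mouse liver after ischemia and reperfusion. The members were all rows of the deposited gene table whose symbol starts with Srsf or Hnrnp, starts with Rbm followed by a digit, or is Clk1 to Clk4, Tra2a or Tra2b. This rule uses names and no measured value, and it found 82 of the 29543 rows: 43 Rbm, 21 Hnrnp, 12 Srsf, 4 Clk and 2 Tra2 symbols. By their symbols, 7 of these are pseudogenes or genes on the opposite strand of a member, although the annotation lists Srsf3-ps as protein coding. A mean of at least 1 FPKM (fragments scaled by transcript length and by the reads of the library) over all libraries was required for testing, which 63 members passed and 19 did not.

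Total RNA was sequenced from whole liver of mice in 2 groups of 3 libraries. The IR group had undergone hepatic ischemia and reperfusion injury after a laparotomy, in which the blood supply of liver tissue is interrupted and then restored, and the Sham group a laparotomy alone, so that both groups share the abdominal surgery. The strain, age and sex of the mice, the duration of ischemia and the time of sampling were not stated in the sources. The labels name replicate biosamples without saying that they are separate animals, so the spread between libraries, on which all p-values rest, may be technical.

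Pre-mRNA splicing removes introns on the spliceosome, whose choice of sites is steered by RNA-binding proteins. SR proteins, encoded by the Srsf genes, carry domains rich in serine and arginine, bind exonic enhancers and mostly favour the use of an exon, while hnRNPs bind silencers and often oppose it. CLK kinases phosphorylate SR proteins in the nucleus and so release them from storage in nuclear speckles, and many genes of these families limit their own mRNA through exons or introns that lead to nonsense-mediated decay. The RBM symbols are a heterogeneous collection of RNA-binding proteins that include spliceosome components and factors of RNA export, decay and methylation.

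Sequences before a RefSeq start site of each of 4 members, picked with their values known, are shown as examples of the SR pathway and not as its largest changes. Srsf5, the most abundant SR protein gene, and the kinase Clk2 were lower in IR and the SR-like activator Tra2b was higher, while the kinase Clk4 was lower on the deposited scaling and missed the threshold under median-of-ratios scaling (-0.13, limma adjusted p = 0.109). Each run gives the 250 bases before the RefSeq start site, 5′ to 3′ in the direction of transcription, from RefSeq on build GRCm38.p6. Capitals mark matches on either strand to any of 4 words: TGACGTCA, the palindrome known for CREB and ATF binding; GAANNTTC, a heat shock factor core; CACGTG, the E-box; and CCGGAAG, an ETS core. The words were chosen with expression results known. The run of Srsf5 lies at chr12:80945249-80945498 on the plus strand, that of Clk2 at chr3:89164545-89164794 on the plus strand, that of Clk4 at chr11:51262864-51263113 on the plus strand and that of Tra2b at chr16:22266006-22266255 on the minus strand. In the GENCODE M21 annotation Clk4 spans 51261730 to 51281766, so that its run lies inside the annotated gene.
Srsf5: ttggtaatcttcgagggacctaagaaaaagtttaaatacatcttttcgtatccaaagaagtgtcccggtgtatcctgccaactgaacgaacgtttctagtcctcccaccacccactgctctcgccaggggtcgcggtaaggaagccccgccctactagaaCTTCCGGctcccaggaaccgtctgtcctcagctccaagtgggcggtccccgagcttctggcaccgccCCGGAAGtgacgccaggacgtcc
Clk2: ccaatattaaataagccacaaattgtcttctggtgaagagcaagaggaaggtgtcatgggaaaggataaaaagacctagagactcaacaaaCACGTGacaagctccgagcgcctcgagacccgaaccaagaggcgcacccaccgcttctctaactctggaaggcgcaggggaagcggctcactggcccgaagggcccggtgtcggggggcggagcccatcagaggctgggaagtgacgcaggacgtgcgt
Clk4: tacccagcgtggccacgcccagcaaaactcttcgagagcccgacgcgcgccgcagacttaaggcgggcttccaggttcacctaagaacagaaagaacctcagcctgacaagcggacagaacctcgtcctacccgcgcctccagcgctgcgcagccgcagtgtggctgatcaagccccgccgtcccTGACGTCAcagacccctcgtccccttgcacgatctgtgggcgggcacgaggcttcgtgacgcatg
Tra2b: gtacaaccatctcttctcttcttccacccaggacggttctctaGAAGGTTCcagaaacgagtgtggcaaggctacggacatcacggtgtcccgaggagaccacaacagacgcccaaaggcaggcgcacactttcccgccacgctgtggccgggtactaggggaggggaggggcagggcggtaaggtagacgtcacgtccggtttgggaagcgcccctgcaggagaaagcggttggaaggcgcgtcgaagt
Srsf5 held CCGGAAG with its first base 90 and 23 bases before the start site, Clk2 held CACGTG at 159 bases, Clk4 held TGACGTCA at 65 bases and Tra2b held GAANNTTC at 207 bases. These matches describe letters and not binding.

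RefSeq had promoter entries, from 250 bases before to 50 bases after the start, for 65 members with 82 start sites. TGACGTCA occurred in 2.44% of the member promoters, against 1.79% of all promoters and 3.03% of the promoters of genes tested. For GAANNTTC the shares were 8.54%, 7.86% and 5.67%, for CACGTG 13.4%, 7.15% and 10.3%, and for CCGGAAG 20.7%, 8.86% and 18.2%. The member promoters were thus nearer to those of the other expressed genes than to all promoters for CACGTG and CCGGAAG. Their median GC content was 62.5%, against 60.7% for genes tested and 52.7% for all.

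Depth was recovered from the FPKM values and ranged from 53622229 to 71752585 reads in Sham and from 54042832 to 68922520 in IR. The first principal component held 93.4% of the variance and separated the groups. Markers of other cell types moved with the groups: summed FPKM was 8.68 to 10.8 in Sham and 139 to 183 in IR for 6 neutrophil markers (6 of 6 higher), 183 to 187 and 72.9 to 94.9 for 6 Kupffer cell markers (6 of 6 lower), and 79.4 to 86.1 and 23.5 to 33.7 for 6 stellate cell markers (5 of 6 lower). The 6 sinusoidal endothelial markers summed to 44.9 to 50.6 and to 30.5 to 65.7, with 5 of 6 lower and Lyve1 higher, from a mean of 10.8 to 34.9 FPKM, and the 5 cholangiocyte markers to 23.8 to 27.3 and to 30.5 to 41.2. The 6 hepatocyte markers, which define the labelled tissue, summed to 60576 to 63430 and to 50710 to 53287. Most of that sum is Alb; 3 of the 6 were lower, 2 higher (Cyp2e1 and Hnf4a) and 1 did not pass, and with median-of-ratios scaling 2 were higher and none lower. No marker was at 0 in all libraries, and the part of these shifts in the results below was not tested. In whole tissue, fewer cells of a type and less RNA per cell cannot be told apart.

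Of the 63 members tested with limma on log2(FPKM + 1), 17 were higher and 23 lower in IR at an adjusted p below 0.05, and 23 did not pass. Over all 10316 genes tested, 24.3% were higher and 53.8% lower, which is 78.1% in either direction, so that passing the threshold was common among all genes. The median log2 fold change, on the log2(FPKM + 1) scale throughout, was 0.0084 for the members and -0.23 for all genes. The changes of the members were mostly small on the deposited scaling: their median absolute log2 fold change was 0.256 against 0.446 for all genes, and 1 member, Rbm47, changed by at least 1, against 17.4% of all genes. Both absolute medians are taken about 0, from which the median of all genes (-0.23) lay farther than that of the members (0.0084). They were not computed under median-of-ratios scaling. The libraries of the groups did not overlap for 22 members with IR above and 25 with IR below, against 25.4% and 55.2% of all genes, or 80.6% in either direction.

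The shift of all genes matters for directions. Under median-of-ratios scaling, which moves the median of all genes to 0.0027, 40 members were higher and 14 lower, while 38.2% of all genes were higher and 38.1% lower, 76.3% in either direction. On that scaling Rbm18 (1.13) was the 1 member that changed by at least 1, with Rbm47 at -0.99, against 15.1% of all genes. The 17 higher members were higher under both scalings, and 14 of the 23 lower members were lower under both. Srsf1, Clk1, Clk4, Hnrnpu, Hnrnpul1, Hnrnpul2, Rbm10 and Rbm34 were lower under the deposited scaling and fell short of the threshold with median-of-ratios scaling, and Hnrnpa2b1 was lower under the first and higher under the second. Relative to the median of all genes, 41 of the 63 members lay above and 22 below. The 22 below were the lower members other than Hnrnpa2b1.

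**Figure D1:**
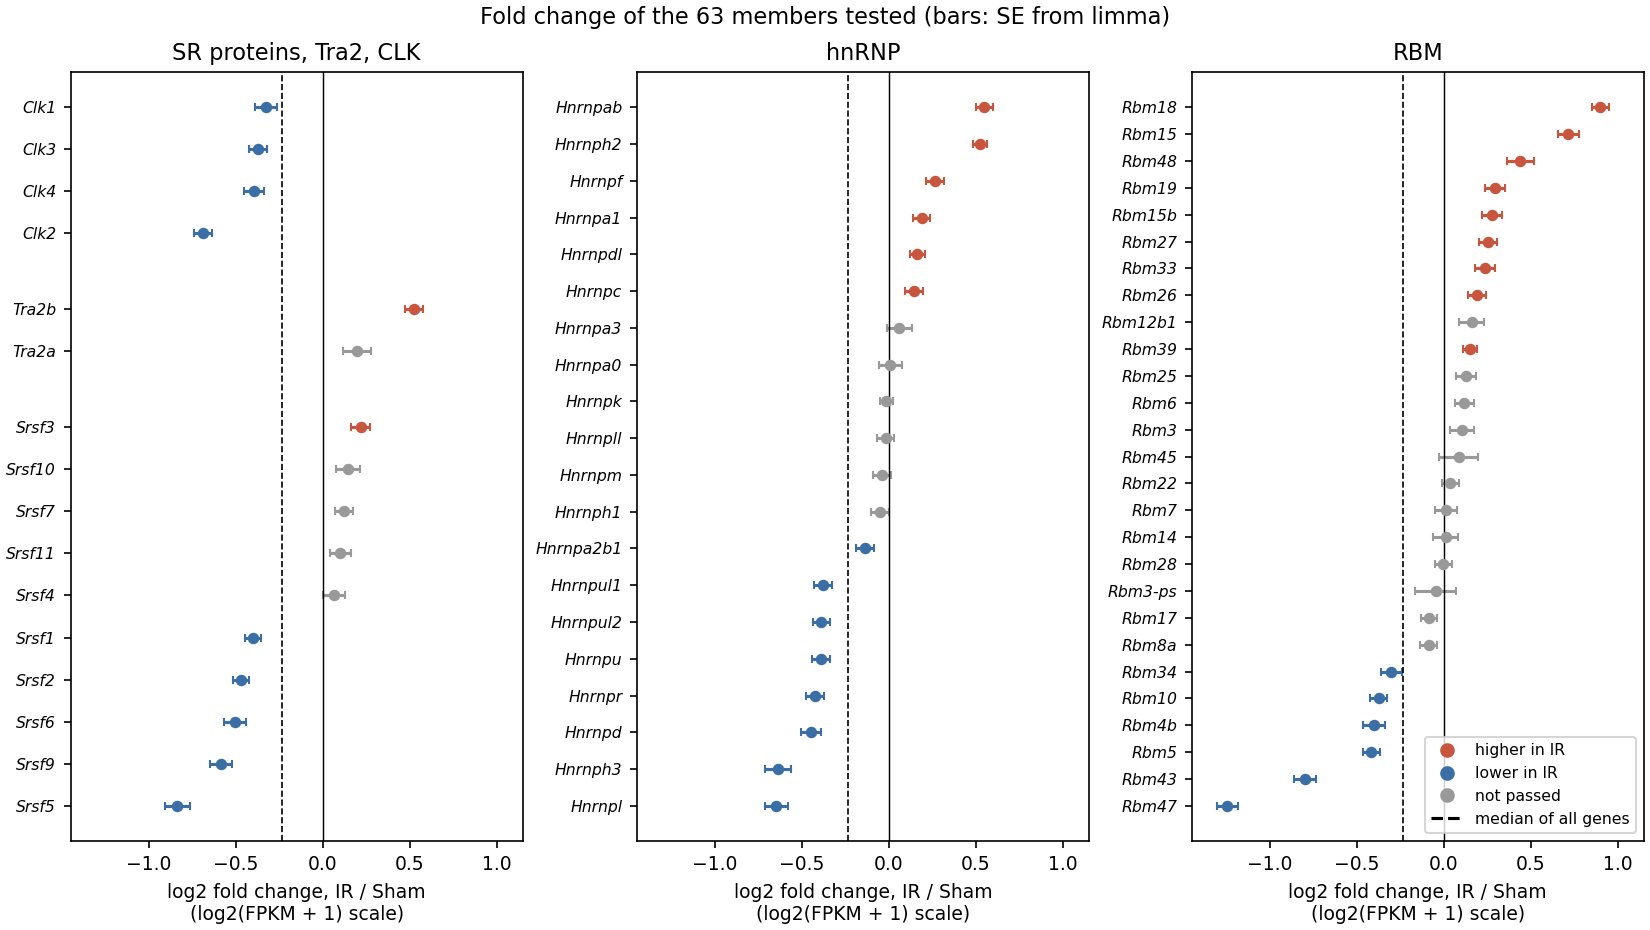
Log2 fold change (IR over Sham, log2(FPKM + 1) scale, x axis) of the 63 members tested by family, with bars of 1 limma SE, colour for calls under the deposited scaling and a dashed line at the median of all genes (-0.23). Rbm47 lies lowest at -1.25 and Rbm18 highest at 0.90; Hnrnpa2b1, at -0.14, is the called member whose direction flips under median-of-ratios scaling (0.16).

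The SR protein genes moved in both directions. Of 10 tested, Srsf5, Srsf2, Srsf6, Srsf1 and Srsf9 were lower in IR, Srsf3 was higher, and Srsf4, Srsf7, Srsf10 and Srsf11 did not pass. That was 50% lower and 10% higher, against 53.8% and 24.3% of all genes tested. With median-of-ratios scaling 4 stayed lower, Srsf1 did not pass (-0.12, adjusted p = 0.0693), and Srsf4, Srsf7, Srsf10 and Srsf11 were higher at 0.31 to 0.40. On that scaling 38.1% of all genes were lower and 38.2% higher. Srsf5 (ENSMUSG00000021134, mm10 chromosome 12, 80945504 to 80950507, plus strand, protein coding) stood at 89.1, 85.5 and 90.1 FPKM in the Sham libraries and at 43.8, 50.7 and 52.8 in the IR libraries. All IR libraries lay well below all Sham libraries. The mean fell from 88.3 ± 2.41 to 49.1 ± 4.73 FPKM (SD, n = 3 each), 1.80-fold lower, with a log2 fold change of -0.84 (SE 0.0718, limma adjusted p = 1.97e-05), and at -0.54 it also fell under median-of-ratios scaling.

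Srsf2 encodes SC35, an exonic enhancer binding protein used as a marker of nuclear speckles. Its FPKM was 33.4, 31.9 and 33.5 in Sham and 24.4, 22.9 and 23.3 in IR, and it fell by 0.47 (SE 0.0457, limma adjusted p = 4.01e-05). Srsf6 was at 28.3, 27.0 and 28.5 FPKM in Sham and 17.7, 20.2 and 20.4 in IR and fell by 0.50 (SE 0.0627, adjusted p = 0.000163). Both genes had no overlap between the groups and remained lower under median-of-ratios scaling, at -0.18 and -0.21. Srsf1, the SR protein also known as SF2/ASF, was at 17.9, 17 and 18.2 in Sham and 13.5, 13.2 and 12.7 FPKM in IR (-0.40, adjusted p = 0.000122 under the deposited scaling). Srsf9, a smaller relative of Srsf1, fell from 11.5, 10 and 10.1 to 6.56, 6.89 and 6.58 FPKM (-0.59, SE 0.0609, adjusted p = 5.82e-05), and under median-of-ratios scaling it was at -0.32.

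Srsf3, the smallest SR protein and an adaptor of mRNA export, went the other way. It was at 6.87, 6.68 and 7.04 FPKM in Sham and 7.67, 8.25 and 8.53 in IR, and rose by 0.22 (SE 0.0522, limma adjusted p = 0.00569). Srsf7, its closest relative and likewise an export adaptor, was at 10.5, 10.3 and 10.6 against 12, 11.8 and 10.7 FPKM; its libraries did not overlap, but it did not pass (0.12, adjusted p = 0.0703). Srsf11 (0.10), Srsf4 (0.07) and Srsf10, which acts as a splicing repressor when dephosphorylated (0.15), had overlapping libraries. Srsf7 passed without IR library 3 (adjusted p = 0.0184) and Srsf10 without Sham library 3 (adjusted p = 0.0156). Srsf12 and Srsf3-ps, a pseudogene by its symbol, were below the filter, at no more than 0.0353 and 0.169 FPKM in any library.

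All 4 CLK kinase genes were lower in IR, with IR libraries below Sham libraries in each, though Clk1 and Clk4 fell short of the threshold with median-of-ratios scaling. Over all genes tested, 53.8% were lower, 55.2% had IR libraries below Sham libraries, and 38.1% were lower with median-of-ratios scaling. Clk2 (ENSMUSG00000068917, mm10 chromosome 3, 89164795 to 89176921, plus strand) was at 4.96, 5.12 and 4.77 FPKM in Sham and 2.54, 2.83 and 2.71 in IR. This 1.84-fold fall was the largest of the kinases, at -0.69 (SE 0.0524, limma adjusted p = 1.02e-05) and -0.45 under median-of-ratios scaling. In liver, Clk2 is known as an insulin-responsive kinase that restrains gluconeogenic gene expression. Clk3 was at 4.31, 4.0 and 3.84 in Sham and 2.82, 2.97 and 2.92 FPKM in IR, and fell by 0.37 (SE 0.0534, adjusted p = 0.000358), with -0.14 under median-of-ratios scaling (limma adjusted p = 0.0389). Exons of Clk3 overlap those of Edc3 on the opposite strand for 15.2% of their bases. Edc3 was at 2.45 to 2.66 FPKM in Sham and 1.31 to 1.46 in IR, and its part in the level of Clk3 was not tested.

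Clk1 and Clk4 are close paralogs whose transcripts are known to be held partly unspliced in the nucleus until stress or kinase inhibition releases them. Clk1 was at 11.9, 12.1 and 12 FPKM in Sham and 8.54, 10.2 and 9.41 in IR (-0.33, SE 0.0630, limma adjusted p = 0.00188), and under median-of-ratios scaling at -0.05 (adjusted p = 0.453). Clk4 was at 9.42, 8.99 and 9.37 in Sham and 7.16, 7.0 and 6.29 FPKM in IR (-0.39, SE 0.0567, adjusted p = 0.000366), and at -0.13 under median-of-ratios scaling (adjusted p = 0.109). Gene-level FPKM does not separate spliced from intron-containing transcripts. Summed over the 4 kinases, FPKM was 30.2 ± 0.326 in Sham and 21.8 ± 1.04 in IR, and the ratio of the Clk sum to the Srsf sum was 0.140 ± 0.00416 and 0.140 ± 0.00460.

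**Figure D2:**
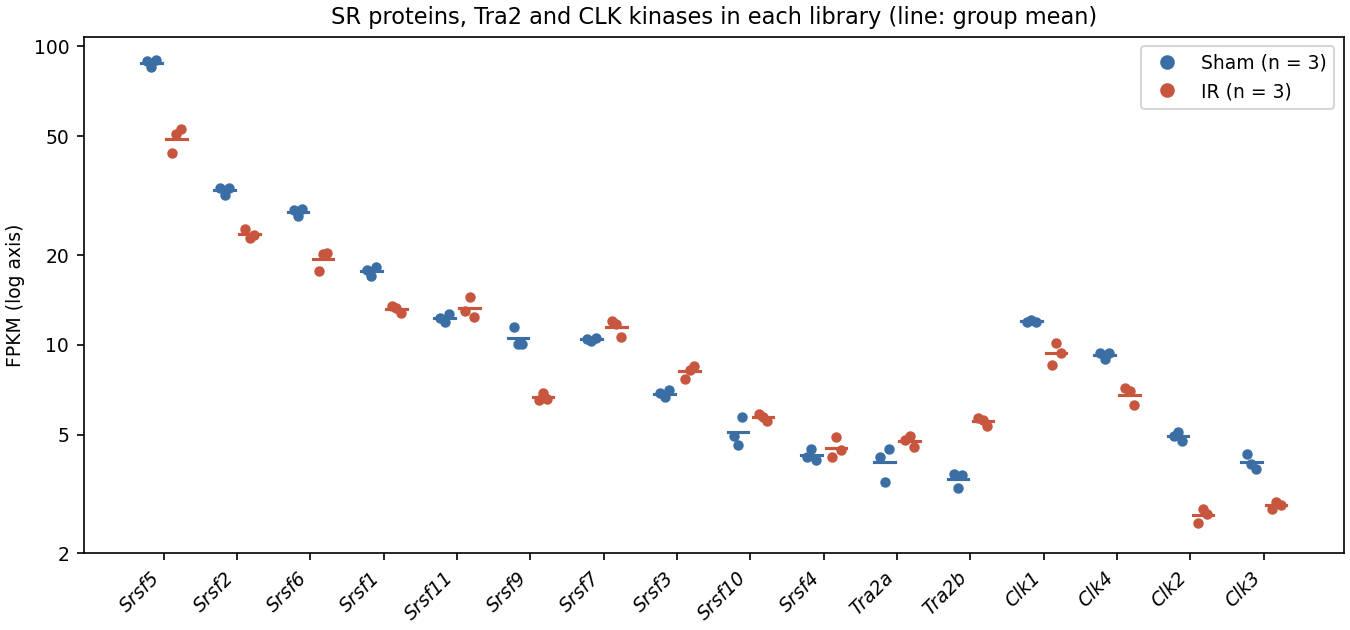
FPKM (log axis) of the SR protein, Tra2 and CLK genes in each of 3 Sham and 3 IR libraries, with a line at each group mean. Srsf5 falls from 88.3 to 49.1 FPKM and Tra2b rises from 3.55 to 5.55; Srsf1, Clk1 and Clk4 lie lower in IR here but fell short of the threshold with median-of-ratios scaling.

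The Tra2 genes encode SR-like activators that bind GAA-rich exonic enhancers. Tra2b (ENSMUSG00000022858, mm10 chromosome 16, 22244549 to 22266005, minus strand) was at 3.70, 3.32 and 3.65 FPKM in Sham and 5.69, 5.6 and 5.36 in IR, a ratio of 1.56. It rose by 0.52 (SE 0.0531, limma adjusted p = 5.03e-05) and by 0.77 under median-of-ratios scaling. Tra2a was at 4.2, 3.47 and 4.47 in Sham and 4.78, 4.96 and 4.53 FPKM in IR, with no overlap, and did not pass (0.20, adjusted p = 0.0548), though it passed under median-of-ratios scaling (0.44). Without Sham library 3, the highest Sham value, Tra2a also passed (adjusted p = 0.0272). Tra2b thus went from 46.9 ± 1.96% to 53.8 ± 0.712% of the summed Tra2 FPKM and became the more abundant of the pair.

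Among the hnRNP genes, 6 of 20 tested were higher, 8 lower and 6 did not pass, and members of 1 subfamily often went in opposite directions. That was 30% higher and 40% lower, against 24.3% and 53.8% of all genes tested. Of 7 genes of the A/B and D subfamilies, 3 were higher. Hnrnpab (ENSMUSG00000020358, mm10 chromosome 11, 51600100 to 51606847, minus strand), a CArG-box and RNA-binding hnRNP, was at 24.4, 23.0 and 23.9 FPKM in Sham and 36.8, 34.1 and 34.9 in IR. It rose 1.48-fold (0.55, SE 0.0480, limma adjusted p = 2.19e-05), and from the fifth to the second most abundant hnRNP gene. Its exons overlap those of Phykpl on the opposite strand for 29.1% of their bases, and since the sources do not state how strand was handled, reads of the overlap cannot be assigned. Phykpl itself was at 1.71 to 1.76 FPKM in Sham and 1.07 to 1.16 in IR.

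Hnrnpa1, a binder of exonic silencers, was at 31.9, 29.9 and 30.5 FPKM in Sham and 33.6, 36.5 and 35.6 in IR, and rose by 0.19 (SE 0.0493, limma adjusted p = 0.00861). Of its transcripts' 50-base words, 28.2% also occur in other genes, nearly all of them in Gm10052, so that its level is uncertain. Hnrnpa2b1, its partner in the classical core particle and the most abundant hnRNP gene in both groups, was at 59.2, 54.8 and 59.7 in Sham and 53.6, 53.4 and 50.6 FPKM in IR. Its call of -0.14 (adjusted p = 0.0384) turned to 0.16 under median-of-ratios scaling (adjusted p = 0.0254), and it did not pass in any of 5 fits that each lacked a library other than Sham library 2 (adjusted p = 0.0516 to 0.136). Hnrnpa0 and Hnrnpa3 did not pass (0.01 and 0.06), and both were higher under median-of-ratios scaling (0.30 and 0.32).

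Hnrnpd encodes AUF1, which binds AU-rich elements of short-lived mRNAs. It was at 7.96, 7.06 and 7.59 FPKM in Sham and 4.95, 5.33 and 5.48 in IR, and fell by 0.45 (SE 0.0589, limma adjusted p = 0.000216), with -0.19 under median-of-ratios scaling. Its paralog Hnrnpdl, which lies 54.6 kb away on chromosome 5 on the same strand, was at 20.5, 19.9 and 20.2 in Sham and 22.0, 22.7 and 23.5 FPKM in IR, and rose by 0.16 (adjusted p = 0.00961). The neighbours therefore had opposite signs under both scalings, since Hnrnpdl was at 0.45 under median-of-ratios scaling.

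The F/H subfamily binds runs of G. Hnrnph2 (ENSMUSG00000045427, mm10 chromosome X, 134601179 to 134607060, plus strand) was at 12, 12 and 12.3 FPKM in Sham and 17.7, 17.9 and 17.9 in IR, and rose by 0.52 (SE 0.0404, limma adjusted p = 1.08e-05). Hnrnpf was at 26.3, 23.8 and 24.8 against 30.2, 29.4 and 30.9 FPKM (0.27, SE 0.0505, adjusted p = 0.00173). Hnrnph3, which lacks part of the RNA-binding region of its relatives, was at 5.58, 5.29 and 6.19 against 3.51, 3.42 and 2.94 FPKM and fell by 0.64 (SE 0.0746, adjusted p = 0.000111). Hnrnph1, at 19.1, 17.7 and 19.9 against 18.2, 18.1 and 18 FPKM, had overlapping libraries and did not pass (-0.05), with the opposite sign under median-of-ratios scaling (0.23). Of the 50-base words of Hnrnpf, 61.9% occur in other genes, against 15.9% for Hnrnph2, so that its value is uncertain.

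Hnrnpl (ENSMUSG00000015165, mm10 chromosome 7, 28808541 to 28822266, plus strand), a CA-repeat binding regulator of exon use, was at 19.8, 18.9 and 18.9 FPKM in Sham and 10.7, 12.8 and 12.2 in IR. It fell 1.61-fold, at -0.65 (SE 0.0668, limma adjusted p = 5.57e-05), and -0.36 under median-of-ratios scaling. Its paralog Hnrnpll, known for the splicing of CD45 in lymphocytes, was at 2.34, 2.40 and 2.51 against 2.28, 2.43 and 2.40 FPKM and did not pass (-0.02). Lymphocyte markers summed to 3.56 to 3.93 FPKM in Sham and 1.17 to 1.62 in IR, and their part in the level of Hnrnpll was not tested. Hnrnpr, at 1.43 to 1.47 against 0.803 to 0.846 FPKM, fell 1.76-fold, or by 0.43 on the log2(FPKM + 1) scale (adjusted p = 0.000134), and at -0.27 it fell under median-of-ratios scaling as well.

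Other abundant hnRNP genes moved little. Hnrnpk, a binder of C-rich sequences, was at 31.1, 30.9 and 30.8 FPKM in Sham and 30.8, 30.8 and 30.2 in IR and did not pass (-0.02, limma adjusted p = 0.730), while under median-of-ratios scaling it was higher (0.28). Hnrnpm did not pass either (-0.04), with 0.23 under median-of-ratios scaling. Hnrnpc, which binds U tracts, was at 18.7, 17 and 17.8 against 20.5, 19.8 and 19.2 FPKM (0.14, adjusted p = 0.0322). Hnrnpc did not pass without Sham library 2 or 3 or without IR library 1 or 2 (adjusted p = 0.0748 to 0.0889).

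The 3 hnRNP U genes, for nuclear scaffold and chromatin-associated RNA-binding proteins, had close values: Hnrnpu at -0.39, Hnrnpul2 at -0.39 and Hnrnpul1 at -0.38, each with limma adjusted p of at most 0.000251 and no overlap between the groups. Hnrnpu itself was at 19.2, 19.6 and 19.1 FPKM in Sham and 13.7, 15.4 and 14.3 in IR, and Hnrnpul2 at 12.5, 13.0 and 12.5 against 8.98, 9.91 and 9.43. Under median-of-ratios scaling all 3 were at -0.11 or -0.12 and none passed (adjusted p = 0.0528 to 0.0907).

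Among the RBM genes, 9 of 27 tested were higher, 6 lower and 12 did not pass, and under median-of-ratios scaling 20 were higher and 4 lower. Of all genes tested, 24.3% were higher and 53.8% lower, and under median-of-ratios scaling 38.2% and 38.1%. On the log2(FPKM + 1) scale, which shrinks the change of low genes, the largest fall of any member was that of Rbm47 (ENSMUSG00000070780, mm10 chromosome 5, 66016549 to 66173118, minus strand), a cofactor of APOBEC1 in the editing of apolipoprotein B mRNA. It was at 10, 9.61 and 10.3 FPKM in Sham and 3.31, 3.95 and 3.63 in IR, with a wide gap between the groups. The mean went from 9.96 ± 0.332 to 3.63 ± 0.323 FPKM (SD, n = 3 each), 2.74-fold lower, at -1.25 (SE 0.0623, limma adjusted p = 1.13e-06) and -0.99 under median-of-ratios scaling. Rbm47 went from the third to the 14th place among the RBM genes by FPKM. Rbm4b, the other tested member grouped among tissue and stage regulators, was at 1.73 to 1.87 against 0.996 to 1.24 FPKM (-0.40, adjusted p = 0.000547; -0.22 under median-of-ratios scaling), and 33.9% of its 50-base words occur in other genes.

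Of the 6 RBM genes of RNA export, decay or methylation, 5 were higher and 1, Rbm7, did not pass. Rbm15 (ENSMUSG00000048109, mm10 chromosome 3, 107325421 to 107333673, minus strand), a subunit that guides the N6-methyladenosine writer complex, was at 2.04, 1.89 and 2.04 FPKM in Sham and 4.25, 3.66 and 3.85 in IR. It rose 1.97-fold (0.72, SE 0.0602, limma adjusted p = 1.74e-05). Its paralog Rbm15b was at 2.39, 2.40 and 2.75 against 3.30, 3.19 and 3.27 FPKM (0.28, SE 0.0569, adjusted p = 0.00261). These paralogs had no overlap between the groups, with IR above, as had 25.4% of all genes tested. Rbm27, which works with nuclear RNA decay by the exosome, rose from 2.51, 2.81 and 2.75 to 3.41, 3.35 and 3.46 FPKM (0.26, SE 0.0515, adjusted p = 0.0023), and its relative Rbm26 rose by 0.19. Rbm33 rose from 5.72, 6.23 and 5.44 to 6.84, 7.18 and 6.98 FPKM (0.24, SE 0.0562, adjusted p = 0.00549). Rbm7, a subunit of the nuclear exosome targeting complex, was at 9.37, 9.15 and 10.6 against 9.31, 10.1 and 10 FPKM (0.01, adjusted p = 0.874), and was higher under median-of-ratios scaling (0.29).

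The 9 tested RBM genes of the spliceosome and the exon junction complex gave 2 higher, 2 lower and 5 that did not pass. That was 22.2% in each direction, against 24.3% higher and 53.8% lower of all genes tested. Rbm39, a U2AF-related splicing factor, was at 17.4, 16.8 and 17.1 FPKM in Sham and 18.8, 19.7 and 18.8 in IR (0.15, SE 0.0428, limma adjusted p = 0.0128), and did not pass without IR library 2 (adjusted p = 0.0515). Rbm48, a minor spliceosome factor, was at 1.75, 1.72 and 1.44 against 2.38, 2.47 and 2.89 FPKM and rose by 0.44 (SE 0.0764, adjusted p = 0.00104). Rbm5 and Rbm10, related regulators of exon skipping, were lower at -0.42 and -0.37, and Rbm10 fell short of the threshold with median-of-ratios scaling (-0.11, adjusted p = 0.0585). Exons of Rbm10 overlap those of the far more abundant Ndufb11 on the opposite strand for 3.15% of their bases. Ndufb11 was at 84.4 to 102 FPKM in Sham and 78.4 to 83.0 in IR. With strand handling not stated, the level of Rbm10 is uncertain, and the part of Ndufb11 reads in it was not tested. Rbm6, whose gene lies 2.56 kb from Rbm5 on the same strand, did not pass (0.12), with no overlap and IR above, while Rbm5 was at 3.44 to 3.58 FPKM in Sham and 2.29 to 2.47 in IR.

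Rbm17, which encodes SPF45, was the most abundant RBM gene in Sham at 19.8, 19.0 and 19.2 FPKM, and was at 17.5, 18.5 and 18.6 in IR. It did not pass (-0.08, limma adjusted p = 0.121) and had the opposite sign under median-of-ratios scaling (0.20), as did Rbm8a, the exon junction protein Y14 (-0.09 and 0.18). Rbm22 (0.04) and Rbm25 (0.13) did not pass and were higher under median-of-ratios scaling. Rbm25 passed without IR library 3 (adjusted p = 0.0254).

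Of the remaining tested RBM genes, Rbm18 had the largest rise of any member (ENSMUSG00000026889, mm10 chromosome 2, 36116079 to 36136773, minus strand). It was at 2.33, 2.31 and 2.43 FPKM in Sham and 5.07, 5.37 and 5.35 in IR, a ratio of 2.24 and a log2 fold change of 0.90 (SE 0.0475, limma adjusted p = 1.48e-06). Rbm43 was at 2.19, 1.99 and 1.88 against 0.695, 0.816 and 0.689 FPKM and fell 2.76-fold, about as much as Rbm47 by FPKM, or by 0.80 on the log2(FPKM + 1) scale (SE 0.0641, adjusted p = 1.34e-05), also under median-of-ratios scaling (-0.64). In both genes the groups were far apart. Rbm19, a ribosome biogenesis factor, rose from 1.51, 1.48 and 1.73 to 2.12, 2.21 and 2.13 FPKM (0.30, SE 0.0579, adjusted p = 0.0020). Rbm34 was lower at -0.30 and fell short of the threshold with median-of-ratios scaling (-0.10), and Rbm12b1 and Rbm14 did not pass. Rbm45, at 5.55, 4.62 and 5.39 against 4.49, 6.02 and 6.28 FPKM, and Rbm28, at 4.64, 4.74 and 4.43 against 4.65, 4.71 and 4.41, had overlapping libraries and did not pass, although Rbm45 passed without IR library 1 (adjusted p = 0.0426).

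Rbm3 and Cirbp are the classical cold-induced RNA-binding proteins, and only Rbm3 is a member. Rbm3 was at 7.44, 6.85 and 6.75 FPKM in Sham and 7.62, 6.97 and 8.32 in IR, with overlapping libraries, and did not pass (0.11, limma adjusted p = 0.196). Cirbp was at 10.4, 8.60 and 9.21 in Sham and 2.62, 2.60 and 3.28 FPKM in IR, and fell by 1.44 (SE 0.0913, adjusted p = 3.76e-06), and at -1.19 also under median-of-ratios scaling. The mean ratio of Rbm3 to Cirbp within a library went from 0.748 in Sham to 2.71 in IR.

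Ratios between related members of the same library do not depend on how libraries are scaled. Of 20 such pairs, which include Rbm3 with the non-member Cirbp, 17 could be computed. For 12 the 3 IR libraries did not overlap the 3 Sham libraries, 7 with IR above and 5 below. Among single genes 80.6% did not overlap, and the share among pairs of other genes was not computed. For each of the 12 the exact two-sided permutation p was 0.1, the smallest that 3 against 3 allow, and 0.142 after adjustment over 17 pairs, so that no pair can pass. Next to Rbm3 and Cirbp, the mean log2 ratio changed most for Srsf4 to Srsf5 (0.93), Hnrnpd to Hnrnpdl (-0.69), Hnrnpl to Hnrnpll (-0.66) and Hnrnph1 to Hnrnph2 (-0.62). In linear terms Hnrnph1 was 1.56 times as abundant as Hnrnph2 in Sham and 1.02 times in IR, and Rbm15 went from 0.793 to 1.20 times Rbm15b. Clk2 went from 1.22 to 0.928 times Clk3, and Tra2a from 1.13 to 0.858 times Tra2b. Srsf3 to Srsf7, Clk1 to Clk4, Hnrnpul1 to Hnrnpul2, Rbm5 to Rbm10 and Rbm26 to Rbm27 had overlapping ratios.

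**Figure D3:**
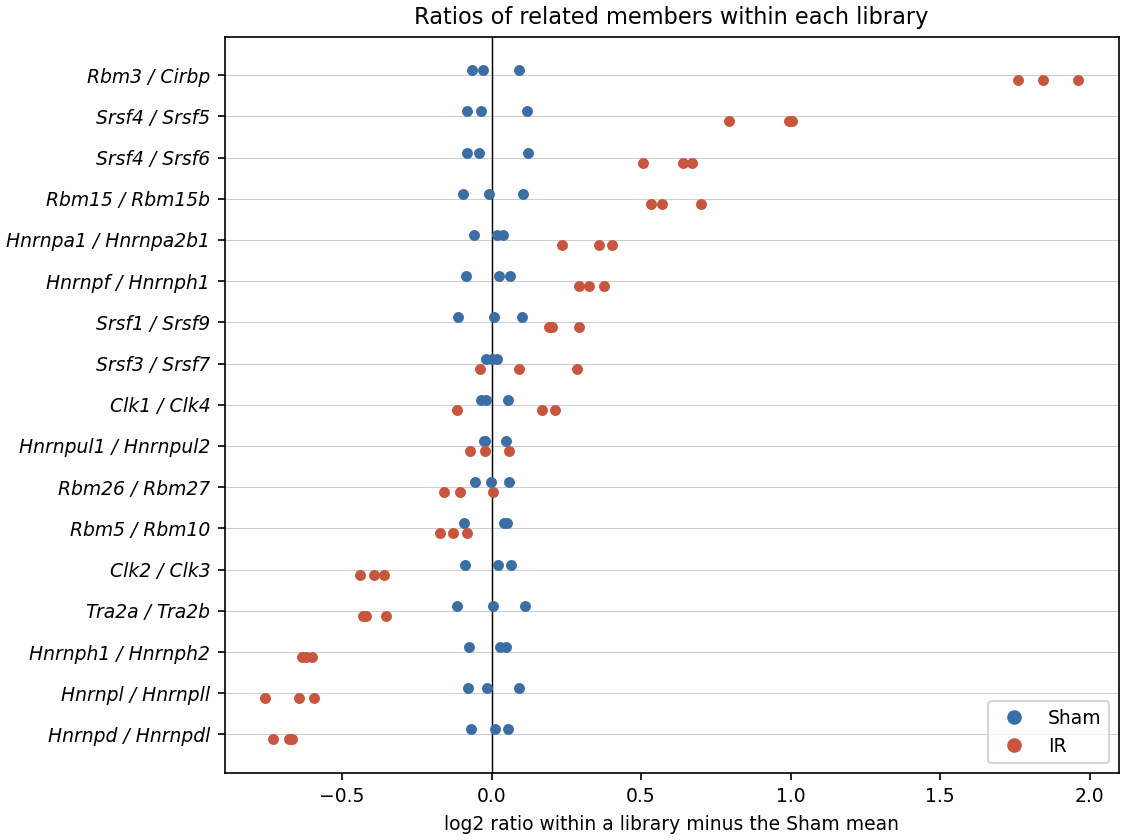
Log2 ratio of FPKM of related members, and of Rbm3 over the non-member Cirbp, within each library, minus the mean of the Sham libraries (x axis), for 17 pairs with 3 Sham and 3 IR libraries each. Rbm3 over Cirbp lies farthest right, at a difference of 1.86, and Hnrnpd over Hnrnpdl farthest left, at -0.69; 5 pairs overlap.

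Summed by family, per-length levels showed a shift between SR proteins and hnRNPs. The Srsf sum was 216 ± 6.0 FPKM in Sham and 155 ± 5.64 in IR, while the Hnrnp sum was 353 ± 10.5 and 355 ± 2.28 and the Rbm sum 141 ± 2.17 and 141 ± 2.41. Within each library, which no scaling of libraries alters, the Srsf sum was 0.607, 0.615 and 0.619 of the Hnrnp sum in Sham and 0.421, 0.445 and 0.446 in IR. The IR libraries all lay below the Sham libraries. These sums are descriptions over members chosen by name, and Srsf5 weighs heavily in them: it made up 40.8 ± 0.10% of the Srsf sum in Sham and 31.6 ± 2.05% in IR. Srsf2 kept 15.2% in both groups, while Srsf11 went from 5.68% to 8.57%, Srsf7 from 4.83% to 7.40% and Srsf3 from 3.17% to 5.25%. In the Hnrnp sum, Hnrnpab went from 6.74% to 9.94%, Hnrnpl from 5.44% to 3.36% and Hnrnpa2b1 from 16.4% to 14.8%.

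**Figure D4:**
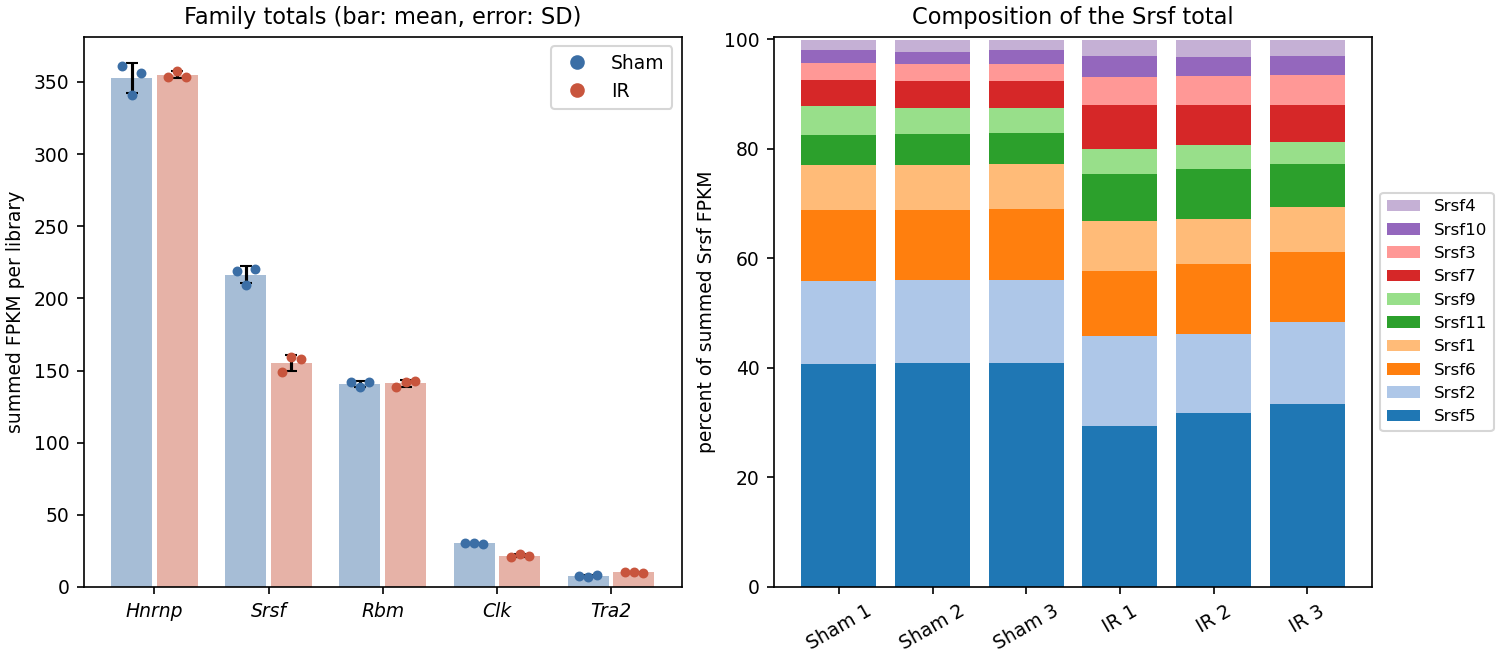
Summed FPKM of each family per library (left; bars are means, error bars SD, n = 3) and the share of each gene in the Srsf sum of each library (right, percent). The Srsf sum goes from 216 to 155 FPKM while the Hnrnp sum is 353 and 355, and the Srsf5 share goes from 40.8% to 31.6%; the sums are on the deposited scaling.

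Of the 19 members below the filter, most were near 0 in liver. In a fit with no filter, Rbm20, the titin splicing factor of heart muscle, was higher, at 0.391, 0.382 and 0.544 FPKM in Sham and 0.777, 0.795 and 0.828 in IR (limma adjusted p = 0.00636). Rbm12b2 (-0.40, adjusted p = 0.00792) and Rbm4 (-0.09, adjusted p = 0.0309) were lower, and the other 16 did not pass. In that fit 12.4% of all 27520 genes were higher and 32.1% lower. Of the 50-base words of Rbm12b2, 56.6% occur in other genes, nearly all of them in Rbm12b1, so that its value is uncertain. Rbm42 was at 0.00852 to 0.0796 FPKM, but 75.4% of its exon bases also belong to Gm21982, as 60.5% of those of Rbm4 belong to Gm21992, and how shared reads were counted was not stated. The muscle regulator Rbm24 was at 0.00859 to 0.0240 FPKM in Sham and listed at 0 in IR.

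Shared sequence limits other members too. Among those tested, 20 had over 10% of their 50-base words in other annotated genes and 10 had none, with a median of 3.08%. Rbm12b1 (60.8%), Rbm10 (42.8%), Srsf4 (39.5%), Hnrnpa3 (27.1%) and Srsf2 (20.7%) were among those with most. The annotation lists a nonsense-mediated decay transcript for 35 of 62 protein-coding members tested (56.5%), against 28.9% of all 9263 such genes, and a transcript with a retained intron for 74.2% against 59.6%. These are properties of the annotation, which also lists a median of 7 transcripts for these members and 5 for all such genes. The FPKM sums over all transcripts of a gene, so that productive and decaying forms were not separated.

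The wider splicing machinery, in 8 lists of 153 tested genes, gave 45 higher and 63 lower, with a median of -0.06, and 85 and 31 under median-of-ratios scaling. On the deposited scaling that was 29.4% higher and 41.2% lower, against 24.3% and 53.8% of all genes tested. Under median-of-ratios scaling 38.2% of all genes were higher and 38.1% lower. Of 10 SR protein kinases and phosphatases, 5 were higher and 3 lower: Ppp1r10, a nuclear targeting subunit of protein phosphatase 1, rose from 5.78 ± 0.0518 to 17.5 ± 1.44 FPKM (1.45), Dyrk1a rose (0.51), and the kinase Dyrk1b (-1.41) and Srpk2, which phosphorylates SR proteins in the cytoplasm (-0.59), fell. Of 24 SR-related and speckle genes, 9 were higher and 10 lower. Srrm4, known as an activator of microexons in neurons, rose most, from 1.11, 1.10 and 1.22 FPKM to 10.3, 11.7 and 11.5 (2.50, limma adjusted p = 4.35e-08), and Srek1ip1 (-0.78), Pnn (-0.69) and Arglu1 (-0.58) fell.

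Of 32 other regulators, 9 were higher and 13 lower. Esrp2, an epithelial splicing regulator of adult hepatocytes, fell from 19.4 ± 0.219 to 6.46 ± 0.467 FPKM (-1.46, limma adjusted p = 3.34e-07), Tardbp, which encodes TDP-43, fell (-0.76), and the paraspeckle protein gene Sfpq rose from 11.6 ± 0.367 to 26.6 ± 0.278 FPKM (1.14). Of 17 U2 and branch site factors, 8 were higher and 4 lower, with Sf1 (0.72) and Sf3b1 (0.69) up and Sf3b2 (-0.68) down. Among 16 Sm and snRNP-specific genes 1 rose, Snrpd1 (0.65), and 8 fell; among 20 of the tri-snRNP, 2 rose and 10 fell, with Snu13 at 0.68, Lsm6 at -0.72 and Prpf8 at -0.58; and among 21 of the Prp19 complex and helicases, 4 rose and 12 fell, with Plrg1 at 0.61. On the deposited scaling 50%, 50% and 57.1% of these 3 lists were lower, near the 53.8% of all genes tested. Under median-of-ratios scaling these 3 lists gave 6 higher and 3 lower, 9 and 6, and 8 and 3. Of 13 genes of the exon junction complex and nonsense-mediated decay, 7 rose and 3 fell, led by the decay kinase Smg1, from 2.68 ± 0.123 to 8.70 ± 0.225 FPKM (1.40), with Upf3b lower (-0.58).

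**Figure D5:**
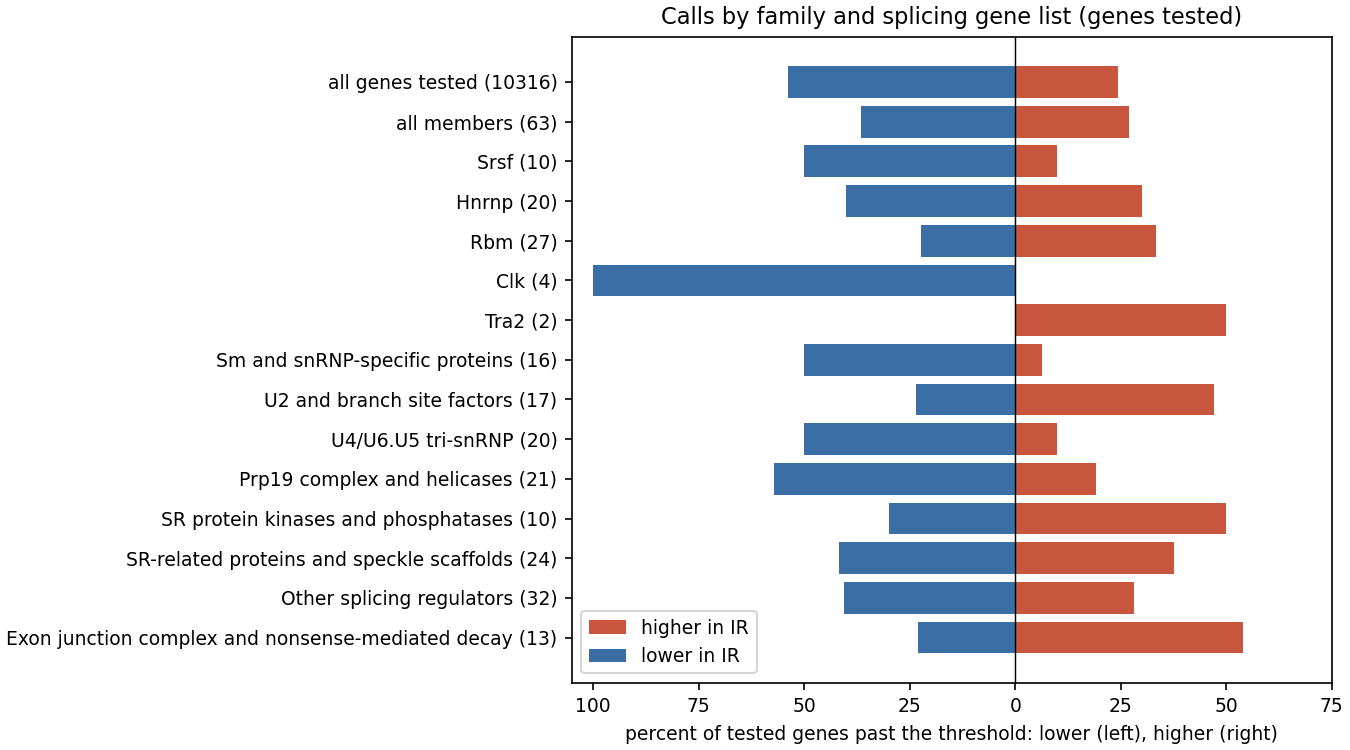
Percent of tested genes past the threshold (x axis), lower in IR to the left and higher to the right, for all genes, the member families and 8 lists of other splicing genes, with the number tested in brackets, on the deposited scaling. All 4 Clk genes are lower and none higher, against 53.8% and 24.3% of all genes; under median-of-ratios scaling 2 of the 4 did not pass and the Sm, tri-snRNP and Prp19 lists had more genes higher than lower.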

How the data were processed

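The authors deposited 1 table of FPKM values per gene and library, and every value column was used. The build was mm10, per the submitters' processing notes. Per the labels' protocols, libraries were made with a SMARTER mRNA kit from column-purified RNA. For the aligner, counter, annotation and strand handling, the details were not given in the sources used here. Coordinates come from GENCODE M21, which held 28977 of 29543 gene IDs and all 82 members.

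The members and gene lists were chosen with earlier results of these data known. All members could be named, with full values for the 10 largest rises and falls past the threshold, the Clk and Tra2 genes and the 2 most abundant of each role group; other splicing genes were named by up to 4 per list with the largest change. Genes with a mean of at least 1 FPKM were tested by the moderated two-sided test of limma 3.58.1 (trended eBayes, R 4.3.3) on log2(FPKM + 1), with Benjamini-Hochberg adjustment over 10316 genes and a threshold of 0.05. The pseudocount of 1 understates the change of low genes. The fit was checked on simulated data. Ratios of members used exact two-sided permutation tests. Tables and plots were made in Python 3.11.15 with scipy 1.17.1, matplotlib 3.10.9, numpy 2.4.6 and pandas 2.3.3.

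Depth was rebuilt as FPKM times M21 exon length times a library total, which gave whole numbers within 0.05 for 98.3% of 27072 listed genes and for all 82 members. Among values of 1 to 10 rebuilt reads 72.1% were even, so that rebuilt reads need not be independent counts. At these totals 3 reads are 4.18e-06% to 5.59e-06% of a library, for counting error only. Mean rebuilt reads of the tested members had a median of 2589, and their coefficient of variation had a median of 4.54% among Sham and 4.03% among IR libraries. Replicate libraries differed by more than the sampling noise of independent reads (median chi-square 1.91 to 3.88 per pair), and each was counted once. Alternatives were other pseudocounts, filters, scalings and limma settings, voom on rebuilt reads, a replicate block and leaving out each library.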

Additional observations from a re-analysis of the deposited data

How the results depend on the processing

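Across 18 alternatives, 15 of the 17 higher and 13 of the 23 lower members kept their call wherever they were tested. The counts of members moved by more than 1.5 times with the scaling and the filter: 40 were higher under median-of-ratios scaling, 33 under quantile normalization and 9 of 38 tested at a mean FPKM of at least 5, and 14 were lower under median-of-ratios scaling and 15 at a mean FPKM of at least 5. At that filter all 38 members tested kept their result, so that the lower counts there come from members not tested. Of all genes, 12245 of 27520 passed with no filter (44.5%) and 3932 of 4892 at a mean FPKM of at least 5 (80.4%). Leaving out each library in turn gave 15 to 19 higher and 22 to 23 lower members and 7590 to 7927 genes. With the replicate number as a block, 17 members were higher, 22 lower and 7964 genes passed, and Hnrnpa2b1 did not pass (adjusted p = 0.0657). Deviations of libraries with the same number correlated at -0.0389, 0.0117 and -0.104, and those with different numbers at -0.0546 to 0.0993. No shared effect of the number was seen. Weak correlations cannot decide whether the libraries were paired, which the labels do not state. Voom gave 20 higher and 23 lower. Signs turned under median-of-ratios scaling for Hnrnpa2b1 (0.16), Rbm17 (0.20), Rbm8a (0.18), Rbm28 (0.25), Hnrnph1 (0.23), Hnrnpk (0.28), Hnrnpll (0.19), Hnrnpm (0.23) and Rbm3-ps (0.12). Under quantile normalization they turned for Rbm3-ps (0.22), Rbm17 (0.018), Rbm8a (0.052), Rbm28 (0.17), Hnrnph1 (0.042), Hnrnpk (0.12), Hnrnpll (0.20) and Hnrnpm (0.077). Scaling without the 50 most abundant and mitochondrial genes turned Rbm28 (0.043), Hnrnpk (0.039), Hnrnpll (0.020) and Hnrnpm (0.011), and TPM scaling turned Rbm7 (-0.016), Hnrnpa0 (-0.021) and Rbm14 (-0.013). With libraries left out in turn, log2 fold changes that crossed 0 ranged from -0.13 to 0.071 for Rbm3-ps, from -0.025 to 0.020 for Rbm28, from -0.026 to 0.073 for Rbm7, from -0.063 to 0.048 for Hnrnpa0, from -0.036 to 0.00015 for Hnrnpll and from -0.042 to 0.065 for Rbm14. Of the members whose sign turned under any of these settings, only Hnrnpa2b1 had passed on the deposited scaling. Of the settings tried on the ratios of members and on family shares, 513 gave the same result, 1 moved and 0 reversed; the 1 was the ratio of Rbm3 to Cirbp with a pseudocount of 0.5 (1.69 in place of 1.86). Median-of-ratios scaling multiplies all genes of a library by 1 factor; quantile normalization does not, and for it and the other alternatives the cause was not tested. Depth limits the members near the filter most: Rbm3-ps had as few as 25 rebuilt reads in a library.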
